A study of Mus musculus with 7 samples.

Results

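The genes described here are 10 genes of antigen presentation in skin: 7 of the MHC class II pathway (H2-Aa, H2-Ab1, H2-Eb1, H2-DMa, H2-DMb1, Cd74 and Ciita) and 3 used to mark Langerhans cells and dendritic cells (Cd207, Epcam and Flt3). They were chosen by name, for their role, out of 55450 genes in the count table. All 10 passed the filter on low counts, which left 17959 genes tested. They were measured by bulk RNA sequencing in skin of 24-month-old wild type male C57BL/6 mice. The dorsal hair of every mouse was clipped and chemically removed and the skin was cleansed with ethanol. Vehicle alone (DMSO) was then applied to 4 mice (480, 481, 482 and 483), and ABT-263 at 5 μM in the same vehicle to 3 mice (476, 477 and 478). Application was daily for 5 days in both groups, and the skin was kept under a semi-occlusive dressing. ABT-263 (navitoclax) inhibits anti-apoptotic proteins of the Bcl-2 family and is used to kill senescent cells. Each library came from the whole skin of 1 mouse, so a level per library cannot tell more cells of a type from more RNA per cell. No untreated mice entered the comparison, so hair removal and vehicle are shared by both groups.

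MHC class II molecules are pairs of an alpha and a beta chain that carry peptides from engulfed proteins to the cell surface for CD4+ T cells. In the mouse, H2-Aa and H2-Ab1 encode the chains of I-A, and H2-Eb1 encodes the beta chain of I-E. Cd74 encodes the invariant chain, which fills the peptide groove during assembly, and H2-DMa and H2-DMb1 encode the DM pair that exchanges its remnant for other peptides. Ciita is the master coactivator of all these genes: it binds no DNA itself but docks on the RFX, CREB and NF-Y proteins that sit on the X and Y boxes of class II promoters. Dendritic cells, B cells and macrophages express class II, and interferon gamma induces it in other cells through Ciita. Langerhans cells are the class II positive cells of the epidermis. They are marked by Cd207 (langerin) and carry Epcam, which keratinocytes of the hair follicle also express. Flt3 is the growth factor receptor on which conventional dendritic cells depend.

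The X and Y boxes are shown here because the class II genes moved together between mice. In RefSeq promoter windows (GRCm38.p6, 250 bases before to 50 after a start site), 7 of the 10 genes had an entry. The letters GNAACT, as found in the X box, followed after 20 to 30 bases by TGATTGG, the Y box, stood in the windows of H2-Aa, H2-Eb1 and H2-DMb1. These letters were picked after the sequences had been seen. The capitals mark GNAACT and TGATTGG, and each sequence is read 5′ to 3′ on the strand of its gene.
H2-Aa, chr17:34287859-34287912, minus strand: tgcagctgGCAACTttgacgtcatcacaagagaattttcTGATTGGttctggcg
H2-Eb1, chr17:34305768-34305820, plus strand: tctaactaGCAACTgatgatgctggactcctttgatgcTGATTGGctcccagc
H2-DMb1, chr17:34153089-34153142, plus strand: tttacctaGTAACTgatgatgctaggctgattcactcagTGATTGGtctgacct
The letters between the boxes number 25 in H2-Aa, 24 in H2-Eb1 and 25 in H2-DMb1. Between TGATTGG and the start site lie 43, 54 and 56 bases. On either strand, and whether or not they overlapped other motifs, GNAACT was present in 42.8% of the 32851 windows and TGATTGG in 7.82%. The pair in this order and spacing was present in 41 windows (0.125%) of 38 genes, H2-Eb2 among them. The windows of H2-DMa, Cd207, Epcam and Flt3 did not hold it. A match of letters is a description of the window and not evidence of binding in these samples.

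The libraries held 20344364 to 26824123 counts in DMSO mice and 27325963 to 43562330 in ABT-263 mice, so depth and treatment cannot be told apart other than through the normalization. Levels are given as CPM, the count divided by the TMM-normalized library size and scaled to a common depth. Mouse 476 stood apart: the summed CPM of 6 leukocyte genes in it was 3.19 times that of the next ABT-263 mouse, and its summed epidermal keratinocyte genes were the lowest of all 7 mice (20378 CPM, against 29571 to 71850 in DMSO mice). The test of each of the 10 genes is therefore given with and without it, and other genes are given without it where the result turns on it. Epidermal genes defined the tissue as skin in every library. Krt14, for example, ranged from 8427 to 24884 CPM.

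In ABT-263-treated skin, all 7 class II genes had higher mean levels than in DMSO-treated skin, by 2.31- to 3.38-fold, and Ciita and H2-Eb1 passed the test. Cd207 did not follow them (1.05-fold), Epcam was lower on average (0.758-fold) and Flt3 higher (1.597-fold), none past the test. Of the 10 genes, 2 were called at an adjusted p under 0.05 in edgeR's quasi-likelihood test, both of them higher. Across all genes tested the same threshold called 24.2% in either direction and 12.4% as higher, so 2 of 10 is close to that background. The median log2 fold change was 1.33 over the 10 genes, 1.44 over the 7 class II genes and 0.0022 over all genes tested.

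**Figure D1:**
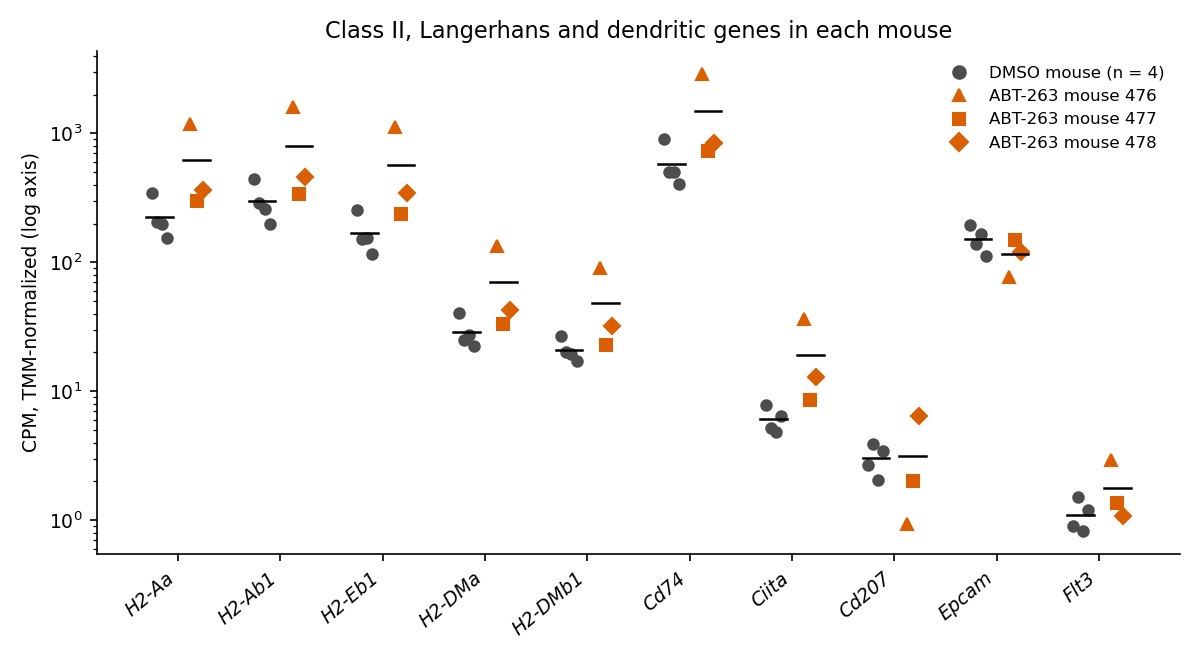
Level of each gene in each mouse, in TMM-normalized CPM on a log axis, with DMSO mice as circles, ABT-263 mice as orange symbols and the group mean as a bar. Mouse 476 lies far above every other mouse in the 7 class II genes and is the lowest of all 7 mice for Cd207 and Epcam.

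Ciita, the coactivator, was the 1 gene of the 10 whose groups did not overlap. It stood at 7.86, 5.23, 4.83 and 6.45 CPM in DMSO mice 480, 481, 482 and 483, and at 36.2, 8.49 and 12.8 CPM in ABT-263 mice 476, 477 and 478. The lowest treated mouse was thus just above the highest control mouse. Groups without overlap were found for 37.1% of all genes tested, and for 18.7% with ABT-263 higher, so 1 of 10 is not above the background. The log2 fold change of Ciita was 1.65 (SE 0.47, adjusted p = 0.0394), while the exact two-sided permutation test on log2 CPM gave p = 0.0571. That test doubles the smaller tail. With 4 mice against 3 this is its lowest possible p, so no gene could fall under 0.05 by it. The call held without mouse 477 (adjusted p = 0.0194) and was lost without any of the others, at adjusted p = 0.0897 without mouse 476, 0.0605 without 478, 0.05375 without 480, 0.0865 without 481, 0.0984 without 482 and 0.0854 without 483. Without mouse 476 the fold change fell from 3.14 to 1.76. Ciita lies on chromosome 16 (mm10, 10480059 to 10528418, plus strand), and 3.5% of its exon bases are overlapped on the opposite strand by Dexi.

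The chains that present peptide were abundant in both groups. H2-Eb1, the I-E beta chain, stood at 253, 151, 153 and 115 CPM in DMSO mice 480 to 483 and at 1121, 237 and 346 CPM in ABT-263 mice 476, 477 and 478. Mice 476 and 478 exceeded every control mouse, and mouse 477 lay between the highest control mouse and the others. Its log2 fold change was 1.76 (SE 0.53, adjusted p = 0.0487), the largest of the 10 genes. The exact permutation p was 0.114. The call held without mouse 477 (adjusted p = 0.0282) and without mouse 480, and was lost at adjusted p = 0.126 without mouse 476, 0.0644 without 478, 0.0983 without 481, 0.109 without 482 and 0.110 without 483. Without mouse 476 the fold change was 1.74, against 3.38 with it.

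H2-Aa, the I-A alpha chain, stood at 347, 206, 198 and 155 CPM in the DMSO mice and at 1180.5, 301 and 367 CPM in ABT-263 mice 476, 477 and 478. Its partner H2-Ab1 stood at 439.7, 290.4, 259 and 197 CPM in the DMSO mice and at 1615, 339 and 456 CPM in the ABT-263 mice. In both genes mouse 480 was the highest control mouse and lay above mouse 477, so the groups overlapped. The log2 fold changes were 1.44 for H2-Aa (SE 0.50, adjusted p = 0.0710) and 1.44 for H2-Ab1 (SE 0.54, adjusted p = 0.0894), and neither passed the test. The exact permutation p was 0.114 for each. Without mouse 476 the fold changes were 1.48 and 1.35 (adjusted p = 0.246 and 0.384). Without mouse 477 both genes passed the test (adjusted p = 0.0464 and 0.0485).

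The I-E molecule cannot be completed in this strain. C57BL/6 mice carry the b haplotype, in which the I-E alpha chain gene is defective, and its gene, annotated as H2-Ea-ps, had 0 counts in all 7 libraries. In 20344364 to 43562330 total counts, this allows at most 3 counts per library. H2-Eb1 RNA was present all the same. H2-Eb2, a second beta chain gene, had 0 to 8 counts per library and was not tested.

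Cd74, the invariant chain, had the highest level of the 10 genes. It stood at 908, 499, 499 and 406 CPM in DMSO mice 480 to 483 and at 2905, 734 and 849 CPM in ABT-263 mice 476, 477 and 478. Only mouse 476 exceeded the highest control mouse. The log2 fold change was 1.37 (SE 0.52, adjusted p = 0.0880, exact permutation p = 0.171). Without mouse 476 it came to 1.38-fold (adjusted p = 0.376) instead of 2.59-fold. Cd74 lies on chromosome 18 (60803848 to 60812652, plus strand).

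The DM pair moved in the same order at a lower level. H2-DMa stood at 40.6, 24.8, 27.2 and 22.3 CPM in the DMSO mice and at 134, 33.2 and 43.1 CPM in ABT-263 mice 476, 477 and 478. H2-DMb1 stood at 27.0, 20.3, 19.6 and 17.2 CPM in the DMSO mice and at 90.8, 22.9 and 32.2 CPM in the ABT-263 mice. Mouse 480 again lay above mouse 477 in both genes. The log2 fold changes were 1.28 (SE 0.48, adjusted p = 0.0850) and 1.21 (SE 0.44, adjusted p = 0.0827), with an exact permutation p of 0.114 for each. Both passed the test without mouse 477 (adjusted p = 0.0475 and 0.0356). Without mouse 476 the fold changes were 1.33 and 1.32 (adjusted p = 0.2975 and 0.261). Assignment of reads to H2-DMb1 is uncertain, because 22.7% of the 50-base stretches of its transcripts also occur in H2-DMb2. For H2-DMa, 10.4% of the exon bases are overlapped on the opposite strand by Brd2, and the reads were counted by strand.

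The 7 class II genes ranked the mice almost alike. In 7 of 7, mouse 476 was the highest ABT-263 mouse, followed by 478 and then 477, and mouse 480 was the highest DMSO mouse. In 6 of 7, mouse 483 was the lowest DMSO mouse. All 3 ABT-263 mice lay above the DMSO median in 7 of 7 genes. Mouse 478 exceeded the highest DMSO mouse in 6 of 7 genes and mouse 477 in 1 of 7. The summed CPM of the 7 genes was 2023, 1196, 1161 and 919 in DMSO mice 480 to 483 and 7082, 1676 and 2106 in ABT-263 mice 476, 477 and 478. Among the 4 control mice alone the sum thus covered a wide range, and its highest value, in mouse 480, lay above that of mouse 477.

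**Figure D2:**
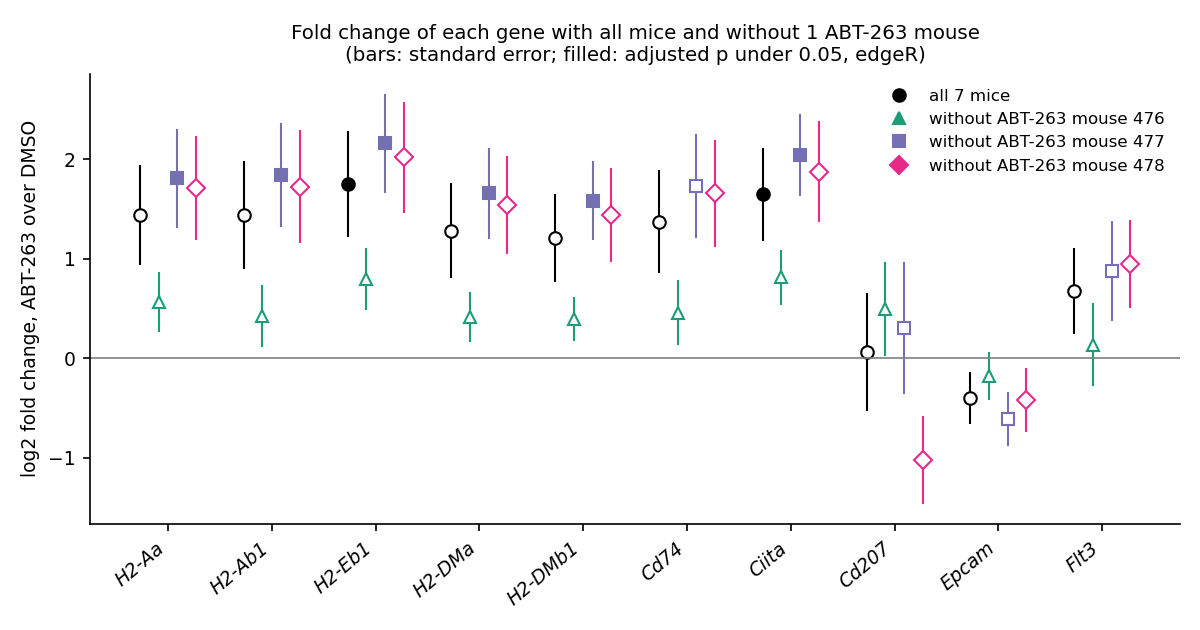
Log2 fold change of ABT-263 over DMSO for each gene with all 7 mice and without each ABT-263 mouse in turn, with the standard error as a bar and filled symbols at an adjusted p under 0.05 (edgeR). Without mouse 476 no gene passes and the class II values lie between 0.40 and 0.81, without mouse 477 there are 6 filled symbols, and Cd207 changes sign without mouse 478.

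How many of the 10 genes were called depended on which mice and which test were used. Without mouse 476 it was 0 of 10 in edgeR, with 2 at an unadjusted p under 0.05, where 12.0% of all genes tested were called. Without mouse 477 it was 6 of 10, where 21.6% of all genes were called. Without mouse 478 it was 0, with 7 at an unadjusted p under 0.05, where 1735 of 18481 genes tested were called. It was 1 without DMSO mouse 480, where 4169 of 17738 were called. It was 0 without mouse 481, 482 or 483, with 2 or 3 at an unadjusted p under 0.05. In these runs 2837 of 17665, 1824 of 17706 and 2063 of 17708 genes were called, against 4342 of 17959 with all mice. The loss of calls was thus shared by genes outside the 10. The DESeq2 Wald test, the type of test the study's methods name, called all 7 class II genes with all mice, and 26.8% of all genes with an adjusted p.

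Ratios between class II genes within a mouse varied less than the levels did. The ratio of Cd74 to H2-Aa in CPM lay between 2.43 and 2.62 in DMSO mice and between 2.32 and 2.46 in ABT-263 mice. That of H2-DMb1 to H2-DMa lay between 0.665 and 0.820 and between 0.679 and 0.749. That of Ciita to H2-Aa lay between 0.0226 and 0.0416 and between 0.0282 and 0.0350. Among the DMSO mice alone, it varied more than the Ciita level did (4.83 to 7.86 CPM). These 3 ratios overlapped between the groups. The ratio of H2-Eb1 to H2-Aa did not overlap: it was 0.728, 0.735, 0.773 and 0.745 in DMSO mice 480 to 483 and 0.950, 0.788 and 0.942 in ABT-263 mice 476, 477 and 478. It was the 1 of 6 ratios between class II genes whose groups did not overlap, and it was not tested. H2-Eb1 thus stood higher relative to H2-Aa in each of the 3 treated mice, including both that were not mouse 476.

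Per kilobase of the longest consensus coding transcript, the levels in DMSO-treated skin were ordered as Cd74 (410 ± 159 CPM per kb, SD, n = 4), H2-Ab1 (244 ± 85.2), H2-Aa (201 ± 73.9), H2-Eb1 (101 ± 35.3), Epcam (74.7 ± 17.7), H2-DMa (17.3 ± 4.92), H2-DMb1 (15.0 ± 2.99), Cd207 (1.99 ± 0.544), Ciita (1.01 ± 0.227) and Flt3 (0.303 ± 0.0860). Between mice the ranges of mean ± SD overlapped among neighbours in the first 5 and between H2-DMa and H2-DMb1, and the other steps were larger than the SDs. Within each mouse the order held for every pair of neighbours in 4 of 4 DMSO mice. The ratio per kb of Cd74 to H2-Ab1, for example, was 1.48 to 1.78, that of H2-Aa to H2-Eb1 1.91 to 2.03, and that of H2-DMa to H2-DMb1 1.03 to 1.27. Over the whole exon length of each gene in place of one transcript, H2-Aa came to 59.6 CPM per kb and moved from the third to the fifth place. The chains and the invariant chain were abundant transcripts, and their coactivator a rare one.

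Cd207, the langerin gene, did not share the class II pattern. It stood at 2.66, 3.92, 2.05 and 3.45 CPM in DMSO mice 480 to 483 and at 0.930, 2.02 and 6.47 CPM in ABT-263 mice 476, 477 and 478. The treated mice enclosed the control range: mice 476 and 477 were below every control mouse and mouse 478 was above every one. Counts behind these levels were 26 to 301 per library. The log2 fold change was 0.06 (SE 0.59, adjusted p = 0.948, exact permutation p = 0.629). It changed sign to -1.02 without mouse 478 and came to 0.50 without mouse 476 (adjusted p = 0.515). The mouse with the highest class II levels had the lowest Cd207 level. Cd207 lies on chromosome 6 (83671215 to 83677857, minus strand).

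Epcam encodes an adhesion molecule of epithelia and Langerhans cells. It stood at 195, 138, 165 and 111 CPM in the DMSO mice and at 77.6, 149.5 and 119 CPM in ABT-263 mice 476, 477 and 478. Mouse 476 was the lowest of all 7 mice, and the other treated mice lay inside the control range. The log2 fold change was -0.40 (SE 0.26, adjusted p = 0.289, exact permutation p = 0.286), and -0.18 without mouse 476 (adjusted p = 0.663). Relative to Cdh1, the cadherin of keratinocytes and Langerhans cells, Epcam stood at 0.655 to 0.849 in DMSO mice and at 0.477 to 0.618 in ABT-263 mice, without overlap. This ratio was not tested. Of 6 epithelial genes whose products bind or act with Epcam, 1 of 6 fell: Spint2, a protease inhibitor (log2 fold change -0.75, SE 0.22, adjusted p = 0.0400). Among the others, Cldn7, Cldn1 and Spint1 had log2 fold changes of -0.47, -0.02 and 0.07. The list's median was -0.22, and 2108 of the 17959 genes tested were called lower. Spint2 kept its call without mouse 477 and lost it without each other mouse (adjusted p = 0.0567 to 0.127).

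Flt3 was the scarcest of the 10 genes, with 16 to 82 counts per library. It stood at 0.900, 1.52, 0.821 and 1.19 CPM in DMSO mice 480 to 483 and at 2.93, 1.36 and 1.07 CPM in ABT-263 mice 476, 477 and 478. Only mouse 476 lay above the control range. The log2 fold change was 0.68 (SE 0.43, adjusted p = 0.274, exact permutation p = 0.286) and 0.14 without mouse 476 (adjusted p = 0.850). Flt3 lies on chromosome 5 (147330741 to 147400489, minus strand) and Epcam on chromosome 17 (87635979 to 87651129, plus strand).

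Of 13 other genes linked to Langerhans cells, all tested, 2 rose and 0 fell, and the median log2 fold change was 0.33. This count is near the 12.4% called higher over all genes and below the 24.2% called in either direction. Tgfbr2, the receptor for the factor that Langerhans cells need to stay in the epidermis, rose (log2 fold change 1.58, SE 0.21, adjusted p = 0.00628). Csf1r, the receptor for Il34 and Csf1, also rose (1.55, SE 0.33, adjusted p = 0.0176). Both are expressed widely outside Langerhans cells, in stromal cells and in macrophages respectively. Il34 itself, singled out after its values were seen, did not pass (-0.83, SE 0.27, adjusted p = 0.0568). Its groups did not overlap, at 25.4 to 50.2 CPM in DMSO mice and 14.2 to 22.3 CPM in ABT-263 mice. Cd24a lay as close to the threshold in the other direction (adjusted p = 0.05675). Its groups did not overlap either, at 104 to 221 CPM in DMSO mice and 245 to 262 CPM in ABT-263 mice. In this list 4 genes were higher and 1 lower without overlap, where 37.1% of all genes tested had groups without overlap. Ltc4s, Cd24a, Mfge8 and Ly75 did not pass the test, with log2 fold changes of -0.53, 0.72, 0.07 and 0.94. Tgfbr2 kept its call without each mouse in turn, and Csf1r lost it without mouse 483 (adjusted p = 0.05001).

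Of 15 dendritic cell genes, 13 were tested, 3 rose and 0 fell, and the median log2 fold change was 0.68. This count is near the 24.2% called in either direction over all genes and above the 12.4% called higher. Irf8, a transcription factor of dendritic cells and macrophages, stood at 12.2, 8.64, 8.93 and 8.38 CPM in DMSO mice 480 to 483 and at 73.6, 23.7 and 25.7 CPM in ABT-263 mice 476, 477 and 478. All 3 treated mice lay above all control mice, and the log2 fold change was 2.10 (SE 0.40, adjusted p = 0.0133). Cd209a, a lectin of dermal dendritic cells, rose (1.13, SE 0.27, adjusted p = 0.0236), as did Ccr7, the receptor that guides dendritic cells to lymph nodes (2.88, SE 0.85, adjusted p = 0.0439). Zbtb46, a transcription factor restricted to conventional dendritic cells among myeloid cells, did not pass (0.22, SE 0.27, adjusted p = 0.579), nor did Batf3 (0.68, adjusted p = 0.200). Xcr1 and Clec9a, which define the cross-presenting subset, were too low to be tested, at 0 to 0.379 and 0.041 to 0.408 CPM. The 4 tested genes with negative values, singled out after the values were seen, were Flt3l, the ligand of Flt3 (-0.58, adjusted p = 0.105), Mgl2 (-0.55, adjusted p = 0.152), Irf4 (-0.30, adjusted p = 0.331) and Ccl22 (-0.06, adjusted p = 0.910). Mgl2 and Irf4 are, like Cd209a, genes of dermal dendritic cells. Irf8 kept its call without each mouse in turn, with 1.38 without mouse 476 (adjusted p = 0.0152). The list's count was 2 without mouse 476 and 1 without mouse 481, 482 or 483, runs in which calls over all genes also fell. Cd209a was lost without these mice or mouse 478 (adjusted p = 0.0540 to 0.0761), and Ccr7 without these mice, mouse 480 or mouse 476 (adjusted p = 0.0668 to 0.176). Without mouse 476 the value of Ccr7 was 1.35.

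**Figure D3:**
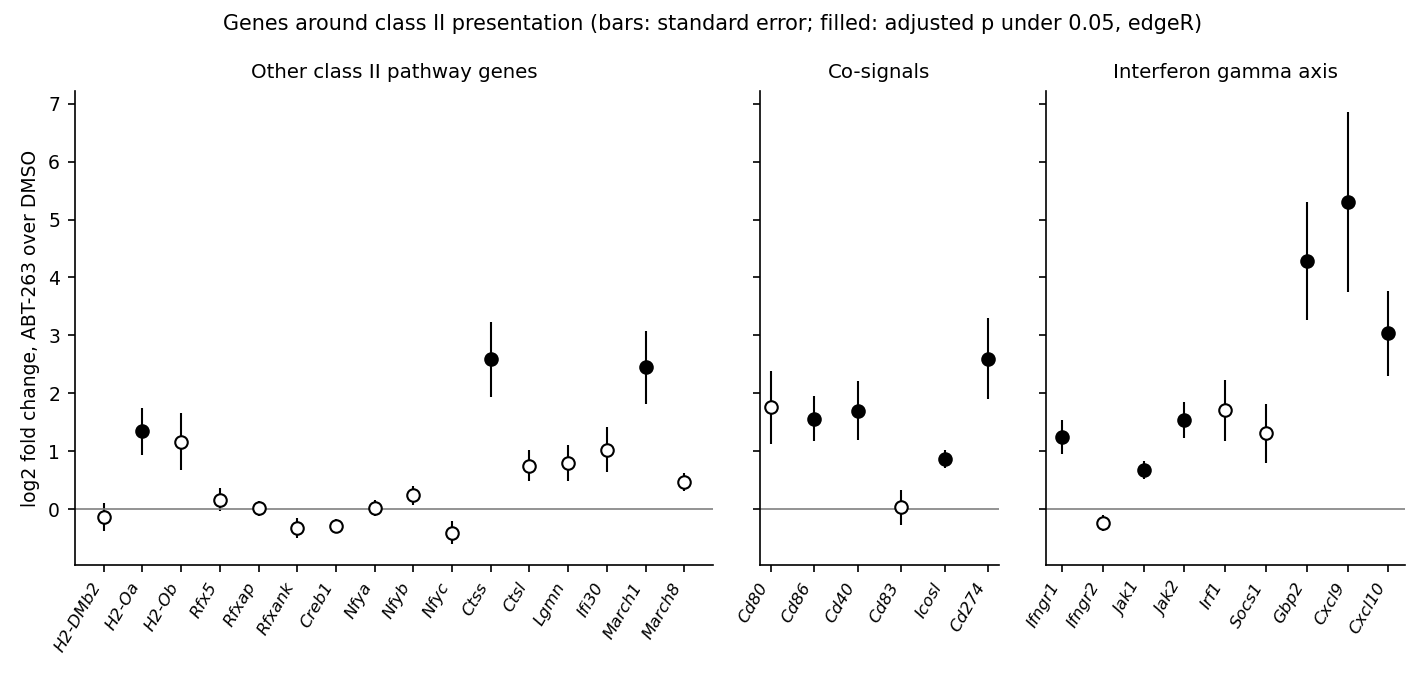
Log2 fold change of ABT-263 over DMSO for tested genes of the class II pathway other than the 7 above, co-signals of antigen-presenting cells and 9 genes of the interferon gamma axis, with the standard error as a bar and filled symbols at an adjusted p under 0.05 (edgeR). The promoter-binding subunits from Rfx5 to Nfyc lie between -0.40 and 0.24, while Ctss, March1, Cd274, Gbp2, Cxcl9 and Cxcl10 lie above 2.

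Of 18 further genes of the class II pathway, 16 were tested, 3 rose and 0 fell, with a median log2 fold change of 0.36. This count lies between what the 12.4% called higher and the 24.2% called in either direction over all genes would give. Ctss, the protease that trims the invariant chain, stood at 109.9, 34.6, 74.2 and 69.2 CPM in DMSO mice 480 to 483 and at 922, 174 and 203 CPM in ABT-263 mice 476, 477 and 478. The groups did not overlap, and the log2 fold change was 2.59 (SE 0.65, adjusted p = 0.0284). March1, a ubiquitin ligase that sends surface class II and Cd86 to degradation, rose by 2.45 (SE 0.63, adjusted p = 0.0304), from 0.674 to 2.41 CPM in DMSO mice to 3.38 to 19.2 CPM in ABT-263 mice. H2-Oa, a subunit of the DO molecule that restrains DM, rose by 1.35 (SE 0.40, adjusted p = 0.0432). H2-Ob, its partner, and H2-DMb2 had values of 1.17 (adjusted p = 0.118) and -0.13 (adjusted p = 0.721). Without mouse 476 none of the 3 passed (adjusted p = 0.0609 for Ctss, 0.0833 for March1 and 0.183 for H2-Oa), where the fold of means for Ctss was 2.61 against 6.01 with it. At an unadjusted p under 0.05, 4 of the 16 genes passed without mouse 476. The list's count was also 0 without mouse 481, 482 or 483 and 1 without mouse 478, runs in which calls over all genes also fell.

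The proteins on which Ciita docks were grouped by role after the values were known. The 7 genes for them (Rfx5, Rfxap, Rfxank, Creb1, Nfya, Nfyb and Nfyc) had log2 fold changes from -0.40 to 0.24, and 0 of 7 passed the test. Their levels lay between 6.90 and 35.7 CPM in the 7 mice. At an unadjusted p under 0.05, edgeR found 1 of the 7, and the DESeq2 Wald test found 0 at either threshold. Mouse 476, which was the highest of all mice for Ciita, was so for 2 of these 7, Nfya and Nfyb.

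Several co-signals of antigen-presenting cells rose in ABT-263-treated skin. Of 7 genes 6 were tested, 4 rose and 0 fell, with a median log2 fold change of 1.64. Over all genes tested, 12.4% were called higher. Icosl, the ligand of ICOS, stood at 8.43, 7.12, 6.57 and 7.03 CPM in DMSO mice 480 to 483 and at 12.8, 13.1 and 13.9 CPM in ABT-263 mice 476, 477 and 478. Here the 3 treated mice were alike, with mouse 476 the lowest of them, and the log2 fold change was 0.86 (SE 0.16, adjusted p = 0.0104). Cd86, a ligand of CD28, rose by 1.57 (SE 0.39, adjusted p = 0.0258) and Cd40 by 1.70 (SE 0.51, adjusted p = 0.0467). Cd274, which encodes the inhibitory ligand PD-L1, rose by 2.60 (SE 0.70, adjusted p = 0.0354). Cd80 had a value of 1.76 (adjusted p = 0.0763) and Cd83, a marker of mature dendritic cells, 0.03 (adjusted p = 0.948). Pdcd1lg2 was not tested, with 1 to 6 counts in DMSO mice and 14 to 137 in ABT-263 mice. Icosl kept its call without each mouse in turn, and without mouse 476 the other 3 were lost (0.89, adjusted p = 0.0555 for Cd86, 1.06, adjusted p = 0.157 for Cd40 and 1.13, adjusted p = 0.0547 for Cd274). The count was 1 without mouse 481, 482 or 483 as well. Calls over all genes also fell in those runs, to 2837, 1824 and 2063, against 4342 with all mice.

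Interferon gamma, the main inducer of Ciita outside professional antigen-presenting cells, was barely detected. Ifng had 4, 0, 2 and 0 counts in DMSO mice 480 to 483 and 33, 3 and 3 counts in ABT-263 mice 476, 477 and 478. It was too low to be tested, and counts above a handful were present in mouse 476 alone. Of the 10 tested genes of its axis, 6 rose and 0 fell, with a median log2 fold change of 1.63, where 12.4% of all genes tested were called higher. Ifngr1, a chain of its receptor, rose by 1.25 (SE 0.30, adjusted p = 0.0235), and the kinases Jak1 and Jak2 rose by 0.68 (SE 0.15, adjusted p = 0.0196) and 1.55 (SE 0.31, adjusted p = 0.0138). The other receptor chain, Ifngr2, had a value of -0.24 (adjusted p = 0.233). Irf1, a transcription factor between the receptor and Ciita, had a value of 1.71 (SE 0.53, adjusted p = 0.05047) and did not pass.

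The induced genes of this axis differed most between mice. Cxcl9, a chemokine that interferon gamma induces, stood at 6.79, 0.885, 0.616 and 0.945 CPM in DMSO mice 480 to 483 and at 258, 8.07 and 11.3 CPM in ABT-263 mice 476, 477 and 478. Mice 480 and 476, the highest of their groups for the class II genes, were also the highest here. The log2 fold change of Cxcl9 was 5.31 (SE 1.55, adjusted p = 0.0477). Gbp2, an interferon-induced GTPase, rose by 4.29 (SE 1.02, adjusted p = 0.0259) and Cxcl10 by 3.03 (SE 0.73, adjusted p = 0.0254). Without mouse 476, Gbp2 came to 2.04 (adjusted p = 0.0425), Cxcl10 to 1.504 (adjusted p = 0.0294) and Cxcl9 to 2.06 (adjusted p = 0.214). The DESeq2 Wald test gave no adjusted p for these 3 genes. The call of Cxcl9 held without mouse 480 and was lost without each of the other 6 (adjusted p = 0.0534 to 0.214). Jak2 kept its call without each mouse in turn (1.05 without mouse 476), while Gbp2 and Cxcl10 lost theirs without mouse 481, 482 or 483 (adjusted p = 0.0540 to 0.0665). Ifngr1 was lost without these mice or mouse 478 (up to adjusted p = 0.0615), and Jak1 without mouse 476, 478, 482 or 483 (up to adjusted p = 0.0675). The list's count was 4 without mouse 476, 2 without mouse 481 and 1 without mouse 482 or 483. Calls over all genes also fell in these runs.

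Macrophages are among the class II positive cells of skin. Of 12 macrophage genes 7 rose (Adgre1, Cd68, Mrc1, Cd163, Lyz2, Fcgr1 and Cd14) and 0 fell, with a median log2 fold change of 1.58. Over all genes tested, 12.4% were called higher. Their summed level was 445 to 1294 CPM in DMSO mice and 1534 to 4839 CPM in ABT-263 mice, without overlap, and in mouse 476 it was 2.30 times that of the next mouse. Among the DMSO mice the order differed from that of the class II genes: mouse 481, second in the class II sum, was the lowest for macrophage genes, and mouse 482 the highest. The count of macrophage genes was 2 to 6 when each mouse was left out in turn. It was 3 without mouse 476 or 478, 4 without mouse 481 or 482 and 2 without mouse 483. Calls over all genes also fell in these runs. Of 6 genes shared by leukocytes 3 rose (Ptprc, Cd53 and Tyrobp), with a summed level of 198 to 440 CPM in DMSO mice and 429.7 to 1432 CPM in ABT-263 mice, and the count was 1 without mouse 482 or 483. Cd163, Cd14 and Cd53 kept their calls without each mouse in turn, and Adgre1, Cd68, Mrc1 and Fcgr1 were lost without mouse 476. Without that mouse Cd14 came to 2.20, against 3.67 with it, Lyz2 to 1.62, against 2.43, Cd53 to 2.07, against 3.27, Ptprc to 1.31, against 2.6999, and Tyrobp to 1.37, against 2.26, and the leukocyte count stayed at 3. The part of these cells in the class II levels was not tested.

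Lymphocyte markers were low. Of 8 B cell genes 4 were tested and 1 rose, where 12.4% of all genes tested were called higher. The gene was Cd22 (log2 fold change 3.47, SE 0.93, adjusted p = 0.0323), which had 0 counts in mice 481 and 483. Its call held without mouse 480 but was lost without each other mouse (adjusted p = 0.0518 to 0.0978). The defining B cell genes Cd79a, Ms4a1 and Pax5 stood at or below 1.79 CPM in every mouse, and Ms4a1 was at 0 in 2 DMSO mice and Pax5 at 0 in 2 ABT-263 mice. Cd79a had 50, 5 and 2 counts in ABT-263 mice 476, 477 and 478, and 2 to 24 in DMSO mice. Ms4a1 had 14, 1 and 4 counts in the ABT-263 mice and 0 to 4 in DMSO mice. Both were thus highest in mouse 476, while Pax5 had 4 counts there and 1 to 9 in DMSO mice. The summed level of the 4 tested genes was 1.6 to 5.89 CPM in DMSO mice and 4.60 to 6.22 CPM in ABT-263 mice. The part of B cells in the class II levels was not tested. Of 8 T cell genes 0 were called by edgeR, with 0 at an unadjusted p under 0.05 and 1 called by the DESeq2 Wald test, and their sum was 15.8 to 29.9 CPM in DMSO mice and 15.7 to 61.6 CPM in ABT-263 mice, highest in mouse 476 and 2.58 times that of the next mouse. The summed dendritic cell list was 226 to 442 CPM in DMSO mice and 419.5 to 778 CPM in ABT-263 mice.

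**Figure D4:**
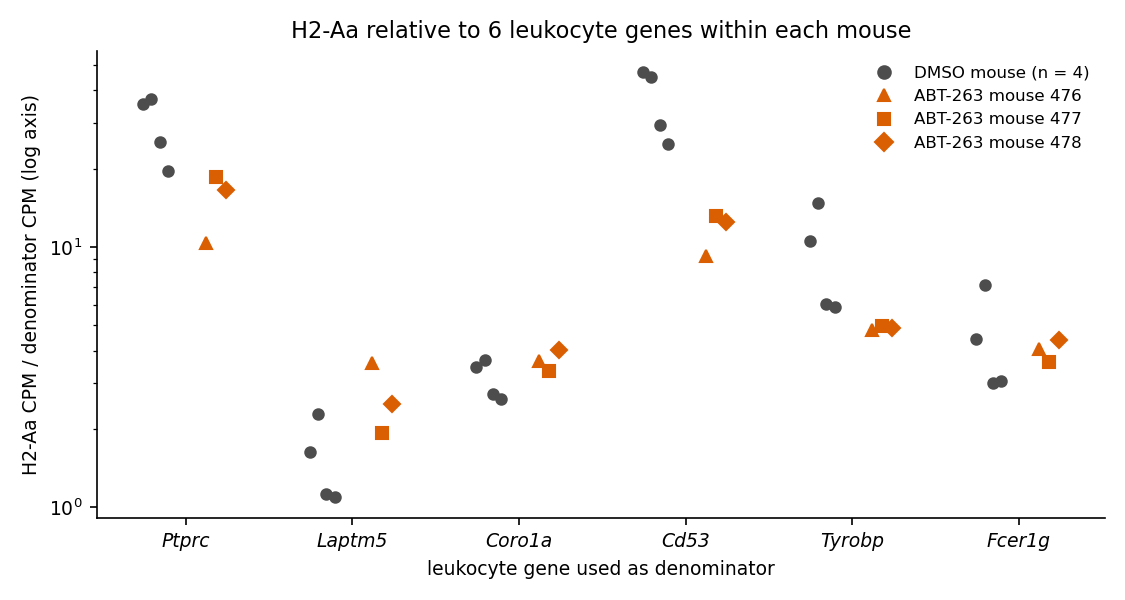
Ratio of the H2-Aa level to that of 6 leukocyte genes within each mouse (CPM over CPM, log axis), with DMSO mice as circles and ABT-263 mice as orange symbols. The ABT-263 mice lie below all DMSO mice with Ptprc, Cd53 or Tyrobp as the denominator and overlap them with Laptm5, Coro1a or Fcer1g.

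Set against leukocyte genes in the same mouse, H2-Aa gave ratios whose direction depended on the gene it was compared with. Per unit of Ptprc, which encodes the pan-leukocyte antigen CD45, the ratio was 35.3, 37.0, 25.3 and 19.5 in DMSO mice 480 to 483 and 10.4, 18.6 and 16.5 in ABT-263 mice 476, 477 and 478. It was likewise lower without overlap per unit of Cd53 (24.8 to 47.1 in DMSO mice, 9.23 to 13.2 in ABT-263 mice) and Tyrobp (5.89 to 14.8 and 4.81 to 4.95). With the other 3 denominators the groups overlapped: Laptm5 (1.10 to 2.29 and 1.93 to 3.59), Coro1a (2.62 to 3.68 and 3.33 to 4.01) and Fcer1g (3.01 to 7.12 and 3.62 to 4.38). Mouse 476, the highest for H2-Aa itself, was the lowest treated mouse for 3 of these ratios. Ciita was lower without overlap per unit of Ptprc (0.614 to 0.939 and 0.318 to 0.579) and Cd53, and overlapped with the other 4. Flt3 was lower without overlap per unit of Ptprc (0.0917 to 0.273 and 0.0258 to 0.0839), Cd53 and Tyrobp. These ratios are a description and were not tested.

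In lists of epithelial genes all calls were lower, with counts near the background of 2108 lower calls among the 17959 genes tested. Of 9 epidermal genes 1 fell, Krt15, a keratin of basal and bulge cells (log2 fold change -1.45, SE 0.38, adjusted p = 0.0312), and 0 rose. Of 13 tested hair follicle genes 2 fell, Lhx2 (-1.19, SE 0.34, adjusted p = 0.0408) and Shh (-2.58, SE 0.77, adjusted p = 0.0457), and of 7 sebaceous gland genes 1 fell, Mc5r (-1.65, SE 0.20, adjusted p = 0.00619). Over the 13 hair follicle genes the median log2 fold change was -1.83, and 12 of 13 values were negative. Mc5r kept its call without each mouse in turn. Krt15 and Lhx2 kept theirs without 2 of the 7 mice each, and Shh without 0 of 7 (adjusted p = 0.0518 to 0.119). The hair follicle sum was 1972 to 4475 CPM in DMSO mice and 2955 to 3892 CPM in ABT-263 mice, most of it from Krt17 (log2 fold change 0.44, adjusted p = 0.273). Without Krt17, a gene set aside after the values were seen, the sum was 100.2, 2664, 93.6 and 92.4 CPM in DMSO mice 480 to 483 and 18.5, 51.8 and 497 CPM in ABT-263 mice 476, 477 and 478. Mouse 481 thus stood apart in its group, as did mouse 478, and mouse 476, the lowest for Epcam, was the lowest here too. The part of follicle content in the Epcam level was not tested.

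Across the 7 mice, the genes whose log2 CPM was most like that of H2-Aa, among 15590 tested genes with a mean of at least 1 CPM, were Cd74 (Pearson r = 0.998), H2-Eb1 (0.995), H2-Ab1 (0.994), H2-DMa (0.992) and Pglyrp1 (0.990). The first 4 places were thus taken by class II genes described here. Over the 21 pairs of class II genes r lay between 0.940 and 0.998, and between 0.711 and 0.991 over the 6 mice without 476. The points share the treatment groups and mouse 476, so these values describe the libraries. For Cd207 the most similar genes were Tril, Trap1, Tspan18, Card10 and Ppp1r26 (r = 0.954 to 0.969), and for Epcam they were Lnx1, Otop3, Elmod1, Sh3gl2 and Susd2 (r = 0.989 to 0.994). None of these 10 passed the test between the groups. With the class II genes, Cd207 had r between -0.628 and -0.497 over 7 mice and between 0.128 and 0.526 without mouse 476, so its sign rested on that mouse. Flt3 had r between 0.709 and 0.763 with it and between -0.337 and 0.021 without it.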

How the data were processed

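RNA from skin of 7 mice was sequenced from a polyA library, with 4 mice in the DMSO group and 3 in the ABT-263 group as the labels give them. Per the study's methods, the authors aligned reads with STAR 2.7.9a to mm10 and used featureCounts (Subread 1.6.2) to count, for each Ensembl gene outside the mitochondrial genome, the properly paired and uniquely placed reads of its own strand. The authors deposited these raw counts, and they were used here; a second table of variance-stabilized values was not used. The 10 genes, the gene lists and the tests were chosen with earlier results of these data known.

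Counts were tested with edgeR 4.0.16 in R 4.3.3 (TMM, filterByExpr, robust quasi-likelihood test, two-sided, Benjamini-Hochberg adjustment over 17959 genes, threshold 0.05), without covariates, since the labels give no batch. Single genes were also tested with an exact two-sided permutation test of mean log2 CPM. Symbols, lengths and positions came from GENCODE M21 on GRCm38 (55190 of 55450 identifiers matched), and promoter windows from RefSeq GRCm38.p6. H2-Ab1, Cd74 and Ciita have no entry in the window table. The edgeR step was tested on simulated data. Alternatives were DESeq2 1.42.0 (Wald test, size factors), other filters, protein-coding genes alone, removal of length and GC trends (mgcv 1.9.3) and leaving out each mouse.

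Named genes are the 10 members, the called genes of each list with up to 4 others in list order, and the 5 genes most like H2-Aa, Cd207 and Epcam. A few listed genes are counted in their lists but not reported here by name. Depth was 20344364 to 43562330 counts per library, and a limit from 0 counts covers counting error alone. Labels call the samples separate mice, so p-values measure the spread between mice.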

Additional observations from a re-analysis of the deposited data

Results flagged for a closer look

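In the DMSO group, mouse 480 stood apart from the other 3 mice in 2 of 35 values examined for a sample far from the rest of its group, where chance alone gives about 1 in 20, here 1.75. The gap to the next mouse, as a share of the group's range, was 0.8556 for Irf8 and 0.9467 for Cxcl9, both past Dixon's critical value for 4 samples. None of the 10 class II, Langerhans and dendritic genes passed this limit (0 of 10), although mouse 480 was the highest DMSO mouse in all 7 class II genes. The group of 3 ABT-263 mice is too small for this check.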

How the results depend on the processing

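Of the 10 genes, 2 were called with all mice, 7 by the DESeq2 Wald test, 0 with no filter beyond 1 count, 1 among protein-coding genes alone, 1 after removal of length and GC trends, and 0 to 6 when each mouse was left out. Class II pathway genes called numbered 3, against 6 by the Wald test, 0 with no such filter and 0 to 4 without a mouse. For Langerhans cell genes the counts were 2, 4 by the Wald test and 1 to 3 without a mouse, for dendritic cell genes 3, 5 by the Wald test and 1 to 3 without a mouse, and for all genes 4342 and 1735 to 4169 without a mouse. The DESeq2 size factors and a minimum of 10 counts in every sample left the count of the 10 genes at 2. Cd207, never called, changed sign to -0.0142 after removal of length and GC trends, and its value lay between -1.02 and 0.50 when each mouse was left out. All 7 class II genes kept a positive fold change in every alternative run. Alternatives for genes outside the 10 were added after the data were seen. The cause of these shifts was not tested. With 3 treated mice, of which 1 carries much of the difference, the size of the class II difference is poorly fixed. No paired analysis was possible because the mice of the 2 groups share no numbers.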
